A study of Mus musculus with 14 samples.

Results

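The transcripts of 9 forkhead genes were followed through 5 cell populations sorted from mouse forelimb buds: *Foxc1*, *Foxc2*, *Foxd1*, *Foxd2*, *Foxo1*, *Foxo3*, *Foxp1*, *Foxp2* and *Foxp4*. They were picked by symbol from the 24454 genes of the count table and belong to 4 subfamilies of forkhead transcription factors. Earlier results of these data were known when they and the gene lists were chosen. The shares of all genes beside the counts below are therefore descriptive. All 9 were measured in every one of the 14 libraries and all 9 passed the filter on low counts. The remaining forkhead genes of the mouse, including relatives such as *Foxd3*, *Foxo4* and *Foxp3*, were kept apart as a comparison list.

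The cells came from embryos of a mixed Swiss Albino background that carry the *Sox9*-IRES-EGFP allele, in which EGFP reports *Sox9*. S9+ and S9- therefore stand for cells with and without EGFP, and Pαhi for a high surface level of PDGFRα. All cells had been depleted of dead cells and of blood, endothelial and epithelial lineages, and each library pools the limb buds of several embryos of both sexes. Besides the S9-SCA-1+ cells (n = 2 libraries), the populations taken at E10.5 were S9-JAG1+ LMPs and S9-Pαhi LMPs, which are limb bud mesenchymal progenitors, and S9+Pαhi OCPs, which are osteo-chondrogenic progenitors (n = 3 libraries each). The S9+PαhiCol2a1+ chondroblasts (n = 3 libraries) were taken at E11.5, so that population and stage cannot be told apart in any comparison with them. Col2a1+ refers to the transcript that these cells express. The paper lists no Col2a1 marker for sorting, so by its account OCPs and chondroblasts share the S9+Pαhi gate. The comparisons ask how the molecular state differs between early progenitors and cells on the way to cartilage.

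Forkhead factors bind DNA through a winged-helix domain. FOXC1 and FOXC2 act in mesenchyme that gives rise to skeleton and vessels, and FOXD1 and FOXD2 are known from stromal and paraxial mesoderm. FOXO proteins are effectors of insulin and growth factor signalling: AKT phosphorylates them and drives them out of the nucleus, so that their activity is set largely on the protein and not on the transcript. FOXP1, FOXP2 and FOXP4 pair with one another through a leucine zipper and mostly repress transcription together with corepressor complexes.

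The proximal promoters of 3 members are shown because their transcripts stand for the 3 patterns that follow. *Foxd2* varied most between populations and starts back to back with the non-coding gene *Foxd2os*, *Foxc1* was high in the *Sox9*-positive populations, and *Foxo1* was the most even. Each stretch holds the 250 bases before the annotated start, 5′ to 3′ on the strand of the gene, taken from RefSeq on GRCm38.p6, the assembly that mm10 stands for. Capitals mark matches to 2 short motifs on either strand, the GC box GGGCGG and the CCAAT box CCAAT, and no match overlapped another.
Foxd2, chr4:114908899-114909148, minus strand: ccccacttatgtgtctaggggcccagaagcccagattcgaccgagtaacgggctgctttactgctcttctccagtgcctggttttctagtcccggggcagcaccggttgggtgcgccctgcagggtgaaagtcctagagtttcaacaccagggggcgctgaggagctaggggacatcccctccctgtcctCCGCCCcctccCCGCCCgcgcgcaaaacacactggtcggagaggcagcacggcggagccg
Foxc1, chr13:31806396-31806645, plus strand: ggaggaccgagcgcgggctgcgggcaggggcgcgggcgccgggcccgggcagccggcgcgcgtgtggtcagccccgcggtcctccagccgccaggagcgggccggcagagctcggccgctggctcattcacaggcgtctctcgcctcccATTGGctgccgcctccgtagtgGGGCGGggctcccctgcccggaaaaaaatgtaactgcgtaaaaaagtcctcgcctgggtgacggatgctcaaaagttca
Foxo1, chr3:52268087-52268336, plus strand: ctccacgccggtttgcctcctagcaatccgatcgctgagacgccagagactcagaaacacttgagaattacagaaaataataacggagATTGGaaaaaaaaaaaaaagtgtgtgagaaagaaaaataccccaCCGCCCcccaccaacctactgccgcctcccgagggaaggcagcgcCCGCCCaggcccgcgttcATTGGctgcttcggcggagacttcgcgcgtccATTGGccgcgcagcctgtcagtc

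The *Foxd2* stretch held 2 GC boxes and no CCAAT box, that of *Foxc1* 1 of each, and that of *Foxo1* 2 GC boxes and 3 CCAAT boxes. Among all 32851 annotated promoters, 32.7% held the GC box letters and 33.9% the CCAAT letters within the same distance. G and C made up 64.4% of the *Foxd2* stretch, 70.8% of that of *Foxc1* and 56.0% of that of *Foxo1*, and the median over all promoters was 52.4%. The table held entries for 7 of the 9 members, with 3 starts for *Foxp1*. None of these 9 stretches held the letters TATAAA, found in 12.4% of all promoters, the letters CACGTG, found in 6.02%, or the forkhead letters GTAAACA, found in 3.17%. *Foxc2* and *Foxp2* had no entry.

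Library totals ran from 20316583 to 29162751 reads in genes, and 3 reads, the least taken as a signal, correspond to 0.101 to 0.149 CPM, the counts scaled to a common library total. Of the transcripts behind the gates, *Sox9* and *Ly6a* followed the labels in every library, and *Jag1* did so at E10.5. *Jag1* was at 228 to 364 CPM in S9-JAG1+ LMPs and at 21.3 CPM or less in the other E10.5 populations. Chondroblasts held 102 to 137 CPM of it. *Sox9* was at 411 to 625 CPM in OCPs and chondroblasts and at 7.41 to 65.5 CPM elsewhere. *Ly6a*, which encodes SCA-1, was detected at 3.10 and 3.36 CPM in the S9-SCA-1+ libraries and stayed at or below 0.406 CPM in the rest. The paper sorted the S9-SCA-1+ cells from PDGFRα-positive cells, but *Pdgfra* was at 44.8 CPM or less there and at 246 CPM or more elsewhere. *Col2a1* was at 695 to 1228 CPM in OCPs and at 1274 to 1886 CPM in chondroblasts. Leukocyte markers summed to 0.819 CPM or less in every library. Other lists moved with the populations. The neural crest and glia markers summed to 9.41 to 29.2 CPM in OCPs and chondroblasts and to 3.90 to 7.98 CPM elsewhere, with *Sox10* at means of 2.98 and 2.78 CPM against at most 0.0890 CPM. The 8 ectoderm markers summed to 19.8 to 23.3 CPM in chondroblasts and to 6.33 to 14.3 CPM elsewhere. In chondroblasts *Krt18* and *Epcam* made up 10.1 and 5.84 CPM of this in the mean. *Krt8* averaged 1.52 CPM there and 1.59 to 3.21 CPM in the other populations. *Krt5*, *Krt14*, *Cdh1* and *Esrp1* averaged 0.452 CPM or less in every population. The 7 endothelial markers summed to 29.8 to 55.1 CPM in chondroblasts and to 8.55 to 23.7 CPM elsewhere. In chondroblasts *Erg* made up 42.0 CPM of this in the mean, and *Pecam1* and *Cdh5* were at 0.636 and 0.485 CPM. The S9-SCA-1+ libraries also carried 7 of 7 myoblast markers, summing to 1501 and 1504 CPM against 1.93 to 11.4 CPM elsewhere, whereas limb mesenchyme markers summed to 503 to 651 CPM there and to 2164 or more elsewhere. Their replicate 3 stood apart in red blood cell markers, with 2509 CPM against 2.38 to 87.3 CPM in all other libraries. In such sorted pools, more cells of a type and more RNA per cell cannot be told apart.

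Expression of all 9 members differed among the 5 populations (joint edgeR quasi-likelihood test, adjusted p between 2.889e-11 for *Foxd2* and 0.0005982 for *Foxo1*), which was also true of 74.8% of the 15125 genes tested. The size of the differences set the members apart from one another. The highest population mean exceeded the lowest 360-fold for *Foxd2*, 75.4-fold for *Foxc1*, 27.1-fold for *Foxp2*, 21.1-fold for *Foxc2* and 16.6-fold for *Foxd1*. The value for *Foxd1* rests on S9-JAG1+ replicate 3, without which it was 56.2-fold. The remaining S9-JAG1+ libraries held 1 and 2 *Foxd1* reads, under the 3 taken as a signal, so *Foxd1* cannot be ranked by that value. The highest mean exceeded the lowest 5.99-fold for *Foxp4* and 4.09-fold for *Foxp1*, but only 2.01-fold for *Foxo3* and 1.58-fold for *Foxo1*. In the following, a member is said to be higher or lower, to rise or to fall, where the adjusted p was at most 0.1 and the log2 fold change at least 1.2 in size, which is 2.30-fold.

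**Figure D1:**
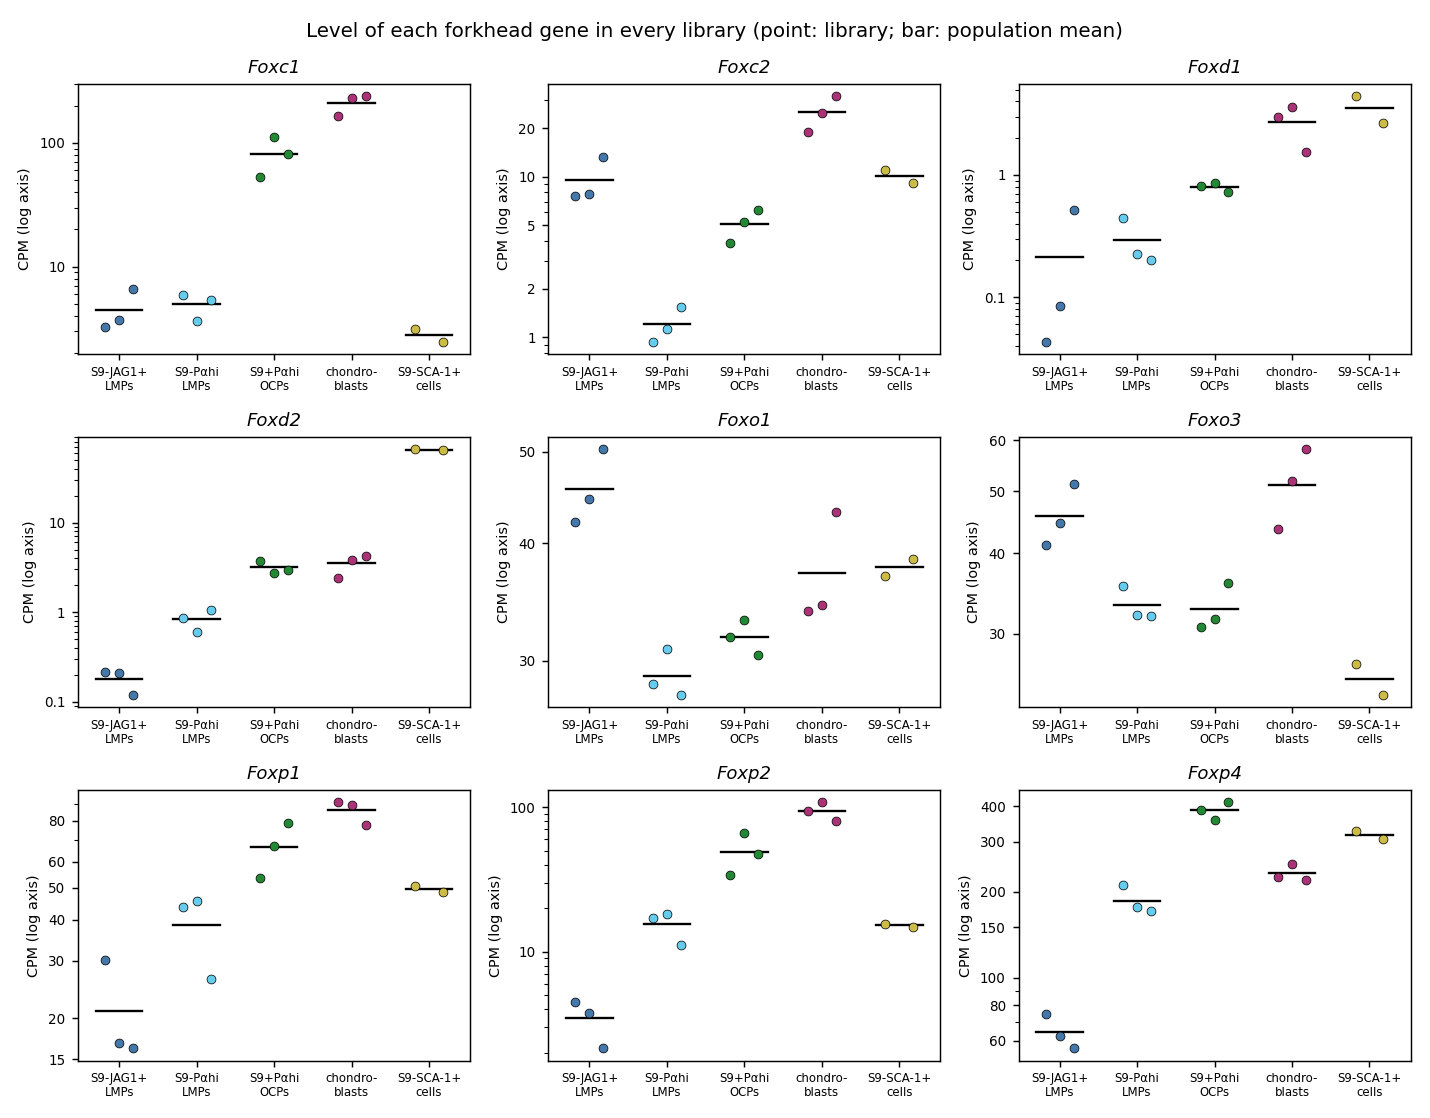
Levels of the 9 forkhead genes in CPM on log axes, 1 point for each of the 14 libraries with a bar at the population mean. *Foxc1* separates OCPs and chondroblasts from the other populations, *Foxd2* separates the S9-SCA-1+ cells at 64.4 and 65.9 CPM, and the axes of *Foxo1* and *Foxo3* span little more than 2-fold.

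One comparison set a population against the mean of the other four, so that the 5 comparisons of this kind share libraries. In S9-JAG1+ LMPs, 6 of 9 members were lower, where 7.70% of all genes were: *Foxc1*, *Foxd1*, *Foxd2*, *Foxp1*, *Foxp2* and *Foxp4*. In S9-Pαhi LMPs 4 of 9 were lower, where 2.31% of all genes were: *Foxc1*, *Foxc2*, *Foxd1* and *Foxd2*. This count fell to 2 without the chondroblasts, when *Foxc1* and *Foxd1* no longer passed, and also to 2 without the S9-SCA-1+ cells, when *Foxd1* and *Foxd2* did not. The share of 2.31% is for all 14 libraries and not for these smaller sets. In OCPs *Foxc1* and *Foxp2* were higher (2 of 9, background 3.37%), and in chondroblasts *Foxc1*, *Foxc2*, *Foxd1* and *Foxp2* (4 of 9, background 11.0%). Of the 8 chondrogenic markers 5 were higher and 1 lower in OCPs, and 7 were higher in chondroblasts. Of the 4 tested neural crest and glia markers 2 were higher in OCPs and 3 in chondroblasts. The 4 tested ectoderm markers included 3 that were higher in chondroblasts, and 1 higher and 1 lower in OCPs. Among 7 paraxial mesoderm markers 6 were lower in S9-JAG1+ LMPs, and 2 were higher and 2 lower in S9-Pαhi LMPs. Of these 7, 2 were higher and 1 lower in OCPs and 3 higher in chondroblasts. In S9-SCA-1+ cells 4 were higher and 3 lower. Of the 7 endothelial markers 1 was higher in chondroblasts and 2 were lower, with a list median of -0.90. The part of these markers in the differences was not tested. In S9-SCA-1+ cells *Foxd1* and *Foxd2* were higher (2 of 9, background 4.46%) and *Foxc1* was lower (1 of 9, background 6.80%). *Foxo1* and *Foxo3* did not pass in any of these comparisons.

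Between neighbours in the order S9-JAG1+ LMPs, S9-Pαhi LMPs, OCPs and chondroblasts, *Foxd2*, *Foxp2* and *Foxp4* rose from S9-JAG1+ to S9-Pαhi LMPs (3 of 9, background 4.42%) and *Foxc2* fell (1 of 9, background 2.58%). From S9-Pαhi LMPs to OCPs *Foxc1*, *Foxc2*, *Foxd2* and *Foxp2* rose (4 of 9, background 3.48%). From OCPs to chondroblasts *Foxc1*, *Foxc2* and *Foxd1* rose (3 of 9, background 6.60%). *Foxc2* was thus the only member that went down in one of these steps and up in the next by more than the limit.

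**Figure D2:**
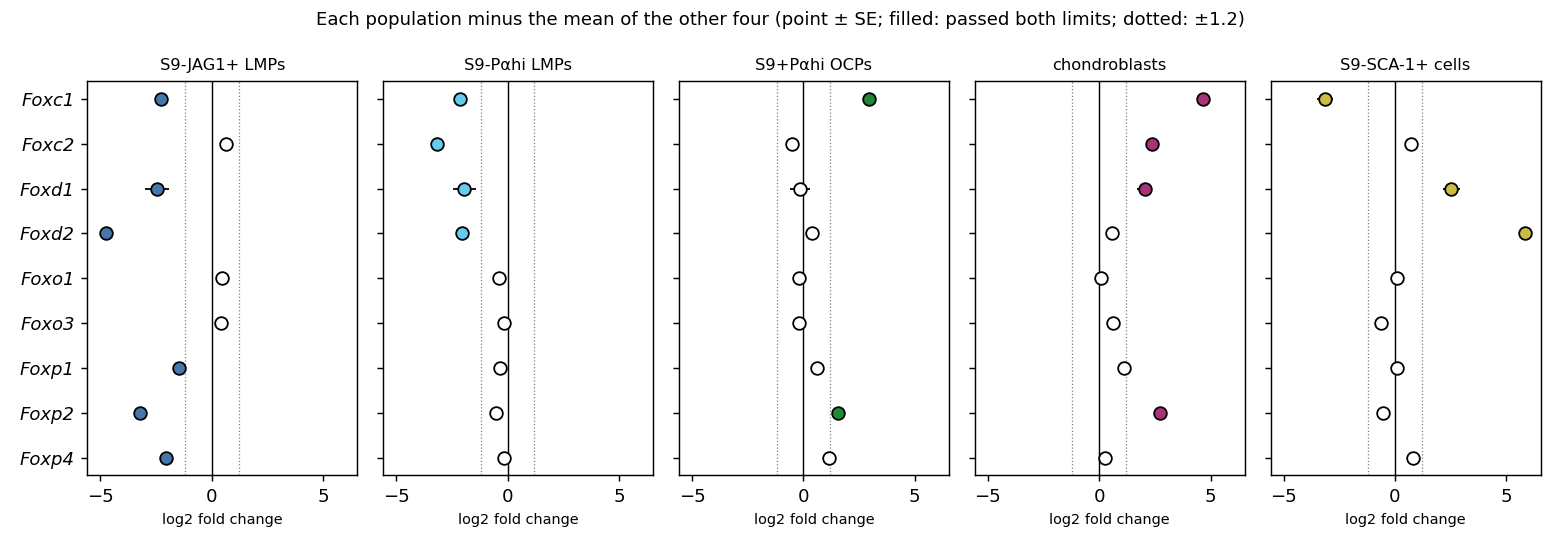
Log2 fold change of each gene in 1 population against the mean of the other four, with its standard error. Filled points passed both limits and dotted lines mark a log2 fold change of 1.2 in either direction. The filled points lie to the left in both LMP populations and to the right in OCPs and chondroblasts, and *Foxd2* in S9-SCA-1+ cells lies farthest from 0, at 5.84.

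*Foxc1* (Entrez 17300, chr13:31806646-31810635, plus strand) encodes a factor needed for the skeleton that forms from mesenchyme, cartilage included. In replicates 1 to 3 it measured 3.25, 3.69 and 6.54 CPM in S9-JAG1+ LMPs and 5.86, 3.65 and 5.38 CPM in S9-Pαhi LMPs. OCPs held 52.9, 111 and 81.1 CPM and chondroblasts 164, 230 and 240 CPM, whereas S9-SCA-1+ cells (replicates 2 and 3) held 3.15 and 2.46 CPM. The lowest OCP library thus lay far above every *Sox9*-negative library, and the chondroblast libraries lay above all others.

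The step of *Foxc1* from S9-Pαhi LMPs to OCPs was the largest of any member in this order (log2 fold change 4.05 ± 0.31 (SE), adjusted p = 2.121e-06). From OCPs to chondroblasts the gene rose by a further 1.37 ± 0.26 on the log2 scale (adjusted p = 0.001807). This call rests on OCP replicate 1, the library lowest in *Foxc1*: without it the log2 difference was 1.14, under the limit of 1.2 (adjusted p = 0.005078). That library was also the lowest OCP library in *Foxc2*, *Foxo3*, *Foxp1* and *Foxp2*. Its chondrogenic markers summed to 1447 CPM, against 2043 and 1890 CPM in the other two, and its *Col2a1* stood at 695 CPM against 1228 and 1045 CPM, while *Sox9* was level in all OCP libraries (433 to 445 CPM). The part of these markers in the *Foxc1* values was not tested. S9-JAG1+ and S9-Pαhi LMPs overlapped in *Foxc1*, and their difference was 0.13 ± 0.33 on the log2 scale (adjusted p = 0.8225). Against the mean of the other four, *Foxc1* was lower in S9-Pαhi LMPs by 2.13 ± 0.27 (adjusted p = 0.00012), and without the chondroblasts the difference was -1.02 and did not pass.

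*Foxc2* (Entrez 14234, chr8:121116171-121118895, plus strand), the close relative of *Foxc1*, followed another order. It was at 7.62, 7.84 and 13.4 CPM in S9-JAG1+ LMPs but at 0.935, 1.13 and 1.54 CPM in S9-Pαhi LMPs. The OCP libraries held 3.85, 5.23 and 6.19 CPM, the chondroblast libraries 19.1, 25.1 and 31.9 CPM, and the S9-SCA-1+ libraries 11.1 and 9.08 CPM. S9-Pαhi LMPs were the lowest population without overlap and chondroblasts the highest, and S9-JAG1+ LMPs and S9-SCA-1+ cells overlapped. *Foxc2* was 8.07-fold lower in S9-Pαhi than in S9-JAG1+ LMPs (log2 fold change -3.01 ± 0.30, adjusted p = 7.143e-06). It then rose in both later steps, by 2.10 ± 0.31 in OCPs and by 2.31 ± 0.26 in chondroblasts on the log2 scale (adjusted p = 0.0004968 and 2.606e-05).

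The balance within the pair differed between populations accordingly. Per kilobase of the transcript length in the table, *Foxc1* was at 0.292 to 0.334 times the level of *Foxc2* in the S9-JAG1+ LMP libraries and at 0.185 and 0.194 times in S9-SCA-1+ cells. It exceeded *Foxc2* 2.21- to 4.28-fold in S9-Pαhi LMPs, 8.95- to 14.5-fold in OCPs and 5.14- to 6.27-fold in chondroblasts. In each S9-JAG1+ and S9-SCA-1+ library, therefore, *Foxc2* was the more abundant of the pair, and in all 9 other libraries *Foxc1* was.

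**Figure D3:**
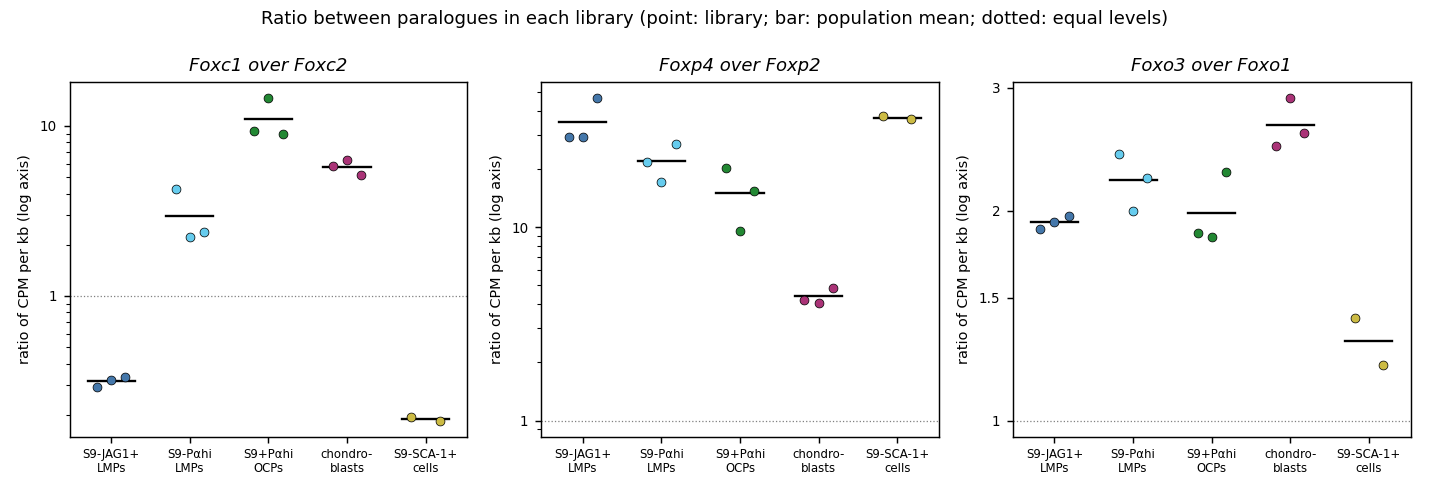
Ratio of CPM per kilobase between pairs of related genes in each library, on log axes, with a bar at the population mean and a dotted line at equal levels. *Foxc1* lies below *Foxc2* in S9-JAG1+ LMPs and S9-SCA-1+ cells and above it elsewhere, *Foxp4* exceeds *Foxp2* least in chondroblasts (4.07- to 4.86-fold), and *Foxo3* exceeds *Foxo1* in all 14 libraries.

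*Foxd2* (Entrez 17301, chr4:114906280-114908898, minus strand) was nearly silent in S9-JAG1+ LMPs and strong in S9-SCA-1+ cells. The S9-JAG1+ LMP libraries held 0.214, 0.210 and 0.119 CPM, from 5, 5 and 3 reads, and the S9-Pαhi LMP libraries 0.854, 0.602 and 1.05 CPM. OCPs were at 3.77, 2.76 and 2.97 CPM and chondroblasts at 2.42, 3.87 and 4.24 CPM. The S9-SCA-1+ libraries, at 65.9 and 64.4 CPM, stood more than 10-fold above every other library.

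On the log2 scale *Foxd2* was 5.84 ± 0.15 above the mean of the other four populations in S9-SCA-1+ cells (adjusted p = 1.195e-12). It was as high without the replicate rich in red blood cell transcripts, at 5.85 (adjusted p = 2.056e-10). The myoblast markers given above moved with it, and their part in the difference was not tested. The gene also rose from S9-JAG1+ to S9-Pαhi LMPs (2.16 ± 0.40, adjusted p = 0.001508) and from there to OCPs (1.94 ± 0.25, adjusted p = 0.0001645), but chondroblasts and OCPs overlapped (0.14 ± 0.20, adjusted p = 0.6472). Comparisons with a mean that includes the S9-SCA-1+ cells depended on those 2 libraries: without them *Foxd2* was higher in OCPs, by 1.96, and in chondroblasts, by 2.15, and the difference for S9-Pαhi LMPs shrank to -0.61 and no longer passed (adjusted p = 0.1618).

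The gene whose profile over the 14 libraries was most like that of *Foxd2*, among 12980 other tested genes that averaged 1 CPM or more over the libraries, was its neighbour *Foxd2os* (Entrez 100040736, chr4:114909257-114921118, plus strand). The likeness was taken as the root mean square difference between log2 levels centred on each gene's mean, and it was 0.44 for *Foxd2os* and 0.73 for the next gene, *Wnt16*. *Foxd2os* is transcribed away from *Foxd2*, and 358 bases lie between the annotated starts, of which the *Foxd2* sequence printed above covers the nearer 250. It was at 19.6 and 22.9 CPM in S9-SCA-1+ cells, at 0.753 to 1.81 CPM in OCPs and chondroblasts, at 0.199 to 0.325 CPM in S9-Pαhi LMPs and at 0 to 1 read in the S9-JAG1+ LMP libraries. The annotated exons of the pair do not overlap. Per kilobase, *Foxd2os* came to 6.81 and 7.97 CPM in S9-SCA-1+ cells, below *Foxd2* at 25.2 and 24.6 CPM.

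**Figure D4:**
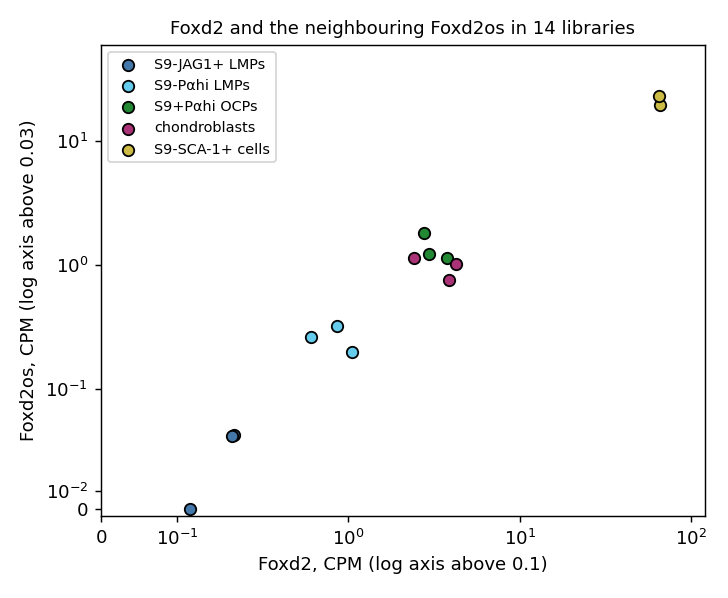
Levels of *Foxd2* and *Foxd2os* in CPM in the 14 libraries, coloured by population, on axes that are logarithmic above 0.1 and 0.03 CPM and linear below. The libraries run from S9-JAG1+ LMPs, of which 1 held no *Foxd2os* read, to the S9-SCA-1+ cells, and OCPs and chondroblasts overlap.

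*Foxd1* (Entrez 15229, chr13:98354245-98356705, plus strand), a marker of stromal progenitors in the kidney, was the rarest member. It was counted 1, 2 and 13 times in the S9-JAG1+ LMP libraries (0.0428, 0.0838 and 0.515 CPM) and 11, 6 and 4 times in S9-Pαhi LMPs (0.447, 0.226 and 0.199 CPM). The OCP libraries held 0.811, 0.856 and 0.723 CPM, the chondroblast libraries 2.99, 3.59 and 1.53 CPM, and the S9-SCA-1+ libraries 4.44 and 2.67 CPM. The LMP populations overlapped, as did chondroblasts and S9-SCA-1+ cells, and the OCP libraries lay between these pairs.

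Against the mean of the other four, *Foxd1* was higher by 2.53 ± 0.38 on the log2 scale in S9-SCA-1+ cells (adjusted p = 0.0001134) and by 2.04 ± 0.35 in chondroblasts (adjusted p = 0.0001973). In S9-JAG1+ LMPs it was lower by 2.46 ± 0.53 (adjusted p = 0.001951), and without their replicate 3, which held 13 of the 16 reads, the difference came to -4.16. At this depth the difference between S9-JAG1+ and S9-Pαhi LMPs was not resolved (0.41 ± 0.72, adjusted p = 0.7364). It passed only without that same library, at 2.14 (adjusted p = 0.09515). In S9-Pαhi LMPs the difference from the mean was -1.94 ± 0.51 (adjusted p = 0.02293), and it missed the limit narrowly without their replicate 2 or 3 (adjusted p = 0.1028 and 0.1061).

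Among the 9 members, the summed level per kilobase was highest for the FOXP genes in every population but S9-JAG1+ LMPs, a sum that leaves out relatives such as *Foxo4*. *Foxp4* (Entrez 74123, chr17:47867133-47924632, minus strand) made up most of this. It measured 74.7, 62.5 and 56.4 CPM in S9-JAG1+ LMPs and 211, 177 and 171 CPM in S9-Pαhi LMPs. OCPs were highest, with 388, 359 and 413 CPM, before the S9-SCA-1+ libraries with 328 and 306 CPM and the chondroblasts with 225, 250 and 221 CPM. No library of one population entered the range of another. *Foxp4* was 2.89-fold higher in S9-Pαhi than in S9-JAG1+ LMPs (log2 fold change 1.53 ± 0.11, adjusted p = 3.829e-07). The next steps were smaller than the limit, 1.05 ± 0.11 up to OCPs and 0.74 ± 0.11 down to chondroblasts on the log2 scale (adjusted p = 2.734e-05 and 0.000258). In OCPs the difference from the mean of the other four, 1.17 ± 0.08, fell just short of the limit of 1.2, and without OCP replicate 2 it came to 1.22.

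*Foxp2* (Entrez 114142, chr6:14901349-15441977, plus strand), best known for its part in vocal learning and also expressed in developing skeleton, climbed through the series. S9-JAG1+ LMPs held 4.50, 3.77 and 2.14 CPM and S9-Pαhi LMPs 17.1, 18.1 and 11.2 CPM. OCPs held 33.8, 66.2 and 47.4 CPM, chondroblasts 94.1, 108 and 79.8 CPM, and S9-SCA-1+ cells 15.4 and 14.9 CPM. S9-SCA-1+ cells lay within the range of S9-Pαhi LMPs, and all other populations were apart. The gene rose by 2.16 ± 0.29 from S9-JAG1+ to S9-Pαhi LMPs and by 1.66 ± 0.25 from there to OCPs on the log2 scale (adjusted p = 8.77e-05 and 0.0005856). The last difference, between OCPs and chondroblasts, was 0.94 ± 0.24 and under the limit (adjusted p = 0.01115).

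*Foxp1* (Entrez 108655, chr6:98925342-99522746, minus strand) had the same order from S9-JAG1+ LMPs to chondroblasts with smaller steps. Its libraries were at 30.1, 16.9 and 16.2 CPM in S9-JAG1+ LMPs and at 43.6, 45.5 and 26.3 CPM in S9-Pαhi LMPs. They were at 53.5, 67.2 and 78.6 CPM in OCPs, at 91.1, 89.6 and 77.9 CPM in chondroblasts and at 50.7 and 48.7 CPM in S9-SCA-1+ cells. The LMP populations overlapped, as did OCPs and chondroblasts. No step between neighbours passed (log2 fold changes of 0.87, 0.79 and 0.38), but S9-JAG1+ LMPs were lower than the mean of the other four by 1.45 ± 0.21 (adjusted p = 6.812e-05). Of the annotated exon bases of *Foxp1*, 3.16% lie in other annotated genes on the same strand, whose reads could be counted here.

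Within the subfamily, *Foxp4* exceeded *Foxp2* per kilobase in every library. The excess was 29.1- to 46.3-fold in S9-JAG1+ LMPs, 17.2- to 27.0-fold in S9-Pαhi LMPs, 9.53- to 20.2-fold in OCPs, 4.07- to 4.86-fold in chondroblasts, and 36.1- and 37.4-fold in S9-SCA-1+ cells. *Foxp1* exceeded *Foxp2* 4.22- to 7.16-fold in S9-JAG1+ LMPs per kilobase but was below it in all chondroblast libraries (0.784 to 0.922 times).

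*Foxo1* and *Foxo3* were present in all populations and varied least. *Foxo1* (Entrez 56458, chr3:52268337-52350109, plus strand) was at 42.1, 44.6 and 50.3 CPM in S9-JAG1+ LMPs, at 28.3, 30.9 and 27.6 CPM in S9-Pαhi LMPs and at 31.8, 33.1 and 30.5 CPM in OCPs. Chondroblasts held 33.9, 34.4 and 43.2 CPM and S9-SCA-1+ cells 36.9 and 38.5 CPM. S9-JAG1+ LMPs and S9-Pαhi LMPs did not overlap, and their difference of 0.66 ± 0.10 on the log2 scale had an adjusted p of 0.0003872 but a size of only 1.58-fold. Between *Foxo1* and the antisense gene *Gm20402*, 7.78% of the exon bases of *Foxo1* are shared, and it is not stated whether strand was used in counting.

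*Foxo3* (Entrez 56484, chr10:42181845-42276695, minus strand) was highest in chondroblasts, at 43.7, 51.8 and 58.1 CPM, which overlapped with S9-JAG1+ LMPs at 41.3, 44.6 and 51.4 CPM. S9-Pαhi LMPs held 35.5, 32.1 and 32.0 CPM, OCPs 30.7, 31.6 and 36.0 CPM and S9-SCA-1+ cells 26.9 and 24.1 CPM. The S9-SCA-1+ libraries were the lowest, with a difference from the mean of the other four of -0.65 ± 0.11 (adjusted p = 0.0004827) that is under the fold limit. Per kilobase *Foxo3* was at most 1.40-fold above *Foxo1* in S9-SCA-1+ cells and 2.47- to 2.90-fold in chondroblasts.

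Summed per kilobase, the 9 members came to 48.2 ± 2.28 CPM per kb (SD, n = 3) in S9-JAG1+ LMPs, 72.4 ± 7.28 (n = 3) in S9-Pαhi LMPs, 153 ± 10.6 (n = 3) in OCPs, 172 ± 16.4 (n = 3) in chondroblasts and 134 ± 6.29 (n = 2) in S9-SCA-1+ cells. What made up the sum differed. In S9-JAG1+ LMPs *Foxp4* and *Foxo3* held 33.3% and 32.9% of it and *Foxo1* 17.1%. In S9-Pαhi LMPs and OCPs *Foxp4* alone held 63.9% and 63.0%. In chondroblasts *Foxp4* held 33.8% of the sum beside *Foxc1* with 30.7%, and in S9-SCA-1+ cells *Foxp4* held 58.8% and *Foxd2* 18.6%.

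**Figure D5:**
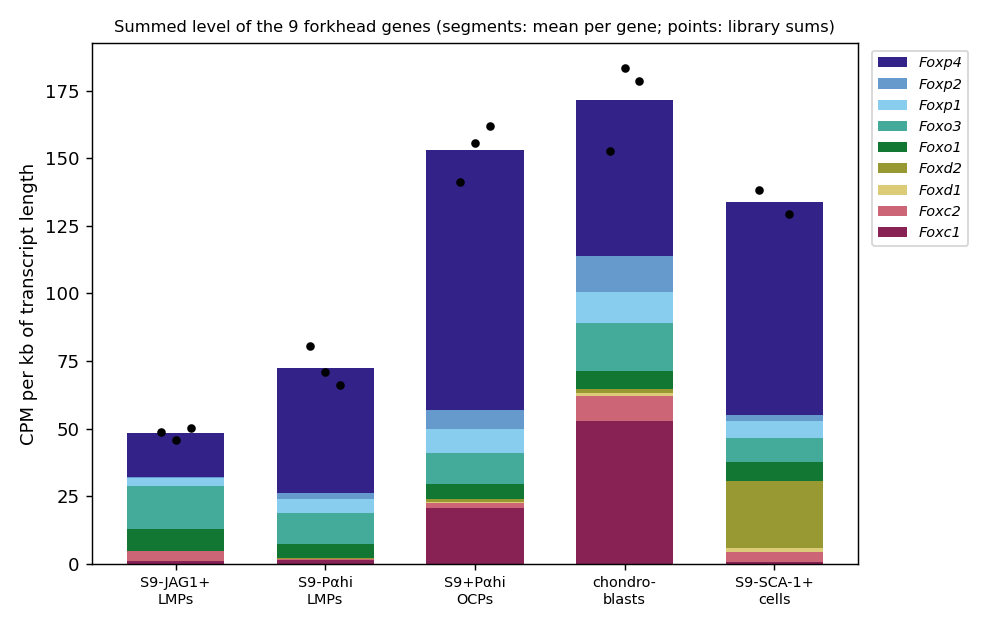
Level per kilobase of transcript length of the 9 genes in each population, stacked as means, with points for the sum in each library. The *Foxc1* segment is wide only in OCPs and chondroblasts, the *Foxd2* segment only in S9-SCA-1+ cells, and the *Foxp4* segment is the largest or level with the largest in every population.

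The genes with the profiles most like those of the other members were found by the same measure. For *Foxc1* they were *Macc1*, the cartilage collagen gene *Col9a3* and *Mmp28* (differences of 0.49, 0.51 and 0.59). *Col9a3* was at 19.5 ± 8.28 CPM (SD, n = 3) in OCPs, 103 ± 19.7 CPM (n = 3) in chondroblasts and at most 1.40 CPM in the mean of any other population. For *Foxp2* they were *Adamts15*, *Ebf3* and *A730056A06Rik* (0.47, 0.49 and 0.49), for *Foxp1* *Adam23*, *Cdkn1c* and *Adamts7* (0.23, 0.25 and 0.26) and for *Foxp4* *Lrrc8b*, *Jph2* and *Slco3a1* (0.18, 0.22 and 0.25). *Cdkn1c*, which encodes the cell cycle inhibitor p57, was at 282 ± 9.82 CPM (n = 3) in S9-JAG1+ LMPs and at 1023 ± 14.4 CPM (n = 3) in OCPs. *Foxc2* was nearest to *Cldn9*, *Sardh* and *Afap1l2* (0.54, 0.58 and 0.60) and *Foxd1* to *Chrnb1*, *Megf10* and *Reps2* (0.56, 0.56 and 0.57).

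The partners of the FOXP factors showed no such range. None of the 12 listed corepressor genes, such as those of the NuRD complex and the CtBP proteins, passed in any population against the mean of the other four by edgeR's quasi-likelihood test or by DESeq2. At an unadjusted p under 0.05 there were 5 in S9-JAG1+ LMPs, 3 in S9-Pαhi LMPs, 5 in OCPs, 11 in chondroblasts and 7 in S9-SCA-1+ cells, where 49.9%, 24.1%, 34.2%, 63.0% and 47.1% of all genes were. Their largest log2 difference was 0.65 in size, for *Gatad2a* in chondroblasts, where the median over the list was -0.33 and that over all genes 0.05.

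The 25 listed regulators of FOXO hold genes of the PI3K and AKT route beside others such as *Sirt1*, *Usp7*, *Stk3* and *Stk4*. For this list, each population was set against the mean of the other four. In chondroblasts 1 was higher, in S9-JAG1+ LMPs 1 was lower, and in S9-SCA-1+ cells 1 was higher and 1 lower. Of all genes, 11.0% were higher in chondroblasts, 7.70% lower in S9-JAG1+ LMPs, and 4.46% higher and 6.80% lower in S9-SCA-1+ cells. *Sgk1*, a kinase that phosphorylates FOXO factors as AKT does, was higher in chondroblasts (2.85 ± 0.14 on the log2 scale) and lower in S9-JAG1+ LMPs (-1.44 ± 0.19) and S9-SCA-1+ cells (-1.40 ± 0.22). Its libraries held 31.3 to 45.5 CPM in chondroblasts and 3.25 to 10.3 CPM elsewhere. *Pik3r1*, a regulatory subunit of PI3K, was higher in S9-SCA-1+ cells (1.51 ± 0.08), with 57.9 and 58.9 CPM against 14.2 to 31.6 CPM elsewhere. These were the only 2 genes of the list past the limits in any population against the mean of the other four. The medians of the list lay between -0.04 and 0.12, beside -0.01 to 0.05 for all genes. *Irs1*, the insulin receptor substrate, was lower in S9-Pαhi than in S9-JAG1+ LMPs (-1.28 ± 0.14 on the log2 scale).

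Of 25 listed FOXO target genes 23 were tested, and they moved in both directions. Against the mean of the other four, 1 was higher and 4 lower in S9-JAG1+ LMPs, 2 were lower in S9-Pαhi LMPs, 3 were lower in OCPs, 3 were higher and 1 lower in chondroblasts, and 3 were higher and 2 lower in S9-SCA-1+ cells. Of all genes, 2.88% were higher and 7.70% lower in S9-JAG1+ LMPs, 2.31% lower in S9-Pαhi LMPs, 1.64% lower in OCPs, 11.0% higher and 1.71% lower in chondroblasts, and 4.46% higher and 6.80% lower in S9-SCA-1+ cells. The medians of the list were -0.42, -0.12, 0.07, 0.35 and 0.01 in the order of the populations, beside -0.01 to 0.05 for all genes. *Pmaip1*, which encodes the pro-apoptotic protein NOXA, was higher in S9-JAG1+ LMPs (3.28 ± 0.19), at 213, 373 and 488 CPM against 12.6 to 79.2 CPM elsewhere, and lower in OCPs (-1.44 ± 0.24) and S9-SCA-1+ cells (-2.39 ± 0.30). *Cdkn1a*, which encodes the cell cycle inhibitor p21, was higher in S9-SCA-1+ cells (5.78 ± 0.20), with 62.7 and 64.3 CPM against 1.88 CPM or less in every other library. It was lower in S9-Pαhi LMPs, OCPs and chondroblasts (-1.52 ± 0.30, -1.86 ± 0.30 and -1.59 ± 0.29). These lower calls, which are among the counts above, are set against a mean that includes the S9-SCA-1+ cells. *Cdkn1a* averaged 1.64 CPM in S9-JAG1+ LMPs, 1.10 CPM in S9-Pαhi LMPs, 0.894 CPM in OCPs and 1.07 CPM in chondroblasts. *Pdk4*, a brake on glucose oxidation, was lower in S9-JAG1+ LMPs (-1.55 ± 0.28) and OCPs (-1.74 ± 0.28) and higher in chondroblasts (1.21 ± 0.21) and S9-SCA-1+ cells (2.23 ± 0.22). *Gadd45b* was higher in chondroblasts (1.82 ± 0.35) and lower in S9-JAG1+ LMPs (-1.23 ± 0.44).

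Of 7 listed FOXC target genes, 4 were higher in chondroblasts against the mean of the other four, where 11.0% of all genes were, with a list median of 1.40 beside 0.05 for all genes. These were *Itgb3* (1.49 ± 0.30), an integrin subunit, and *Pthlh*, *Dll4* and *Ihh*, which averaged under 1 CPM over the libraries. *Cxcr4*, the chemokine receptor of migrating cells, stood at 81.0 and 91.9 CPM in the S9-SCA-1+ libraries and did not exceed 1.65 CPM in any other library (6.81 ± 0.24). The myoblast markers moved with it, and their part was not tested. In OCPs 3 of the 7 were lower, where 1.64% of all genes were: *Cxcr4* (-1.72 ± 0.40), *Angpt2* (-1.26 ± 0.30) and the rare *Pthlh*. *Cxcr4* averaged 0.739 CPM in OCPs, 0.636 CPM in S9-JAG1+ LMPs and 0.546 CPM in S9-Pαhi LMPs, and the mean includes the S9-SCA-1+ cells. *Pthlh* averaged 0.0497 CPM in OCPs, 0.0955 and 0.112 CPM in these LMPs and 1.53 CPM in chondroblasts. From S9-Pαhi LMPs to OCPs, only *Angpt2* of the list was lower (-1.65 ± 0.35).

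Among 36 other forkhead genes, 35 were in the table and 17 were expressed enough to be tested. Against the mean of the other four, 2 were higher in S9-JAG1+ LMPs (background 2.88%), 2 higher and 1 lower in S9-Pαhi LMPs (1.53% and 2.31%), 1 higher and 1 lower in OCPs (3.37% and 1.64%), 5 higher in chondroblasts (11.0%), and 1 higher and 4 lower in S9-SCA-1+ cells (4.46% and 6.80%). The list medians were 0.04, 0.18, -0.15, 0.31 and -0.13 in the order of the populations, beside -0.01 to 0.05 for all genes. Only *Foxf2* averaged 1 CPM or more among these. It was higher in chondroblasts (2.91 ± 0.28) and S9-JAG1+ LMPs (1.80 ± 0.31) and lower in S9-SCA-1+ cells (-4.31 ± 0.60).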

How the data were processed

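RNA-seq of 14 libraries was analysed. Per the labels and the methods of the authors, single-end reads of poly(A)+ RNA were aligned with STAR to mm10, with 1 position kept for reads that fit several, and reads starting in an exon of a RefSeq mRNA were counted with qCount of QuasR. The deposited values are raw counts per Entrez gene, beside an authors' column of transcript length (a value in bases, also deposited). Symbols and positions came from RefSeq and GENCODE annotation of GRCm38.p6 (24374 of 24454 identifiers matched, the other 80 held 0.358% of counts). Reads in exons outside the deposited length are not in these counts.

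In edgeR 4.0.16 (R 4.3.3), genes were kept with filterByExpr by population (15125), totals scaled by TMM (factors 0.957 to 1.06), and 1 mean per population fitted to all 14 libraries with the quasi-likelihood test. P-values were adjusted by Benjamini-Hochberg over all tested genes. The SE is the log2 fold change divided by the square root of F. The biological coefficient of variation was 13.4%. CPM use scaled totals, and log2 levels a prior count of 2. Alternatives were DESeq2 1.42.0 size factors, library totals, 2 other filters, DESeq2's Wald test, no fold limit, the replicate number as a block, and libraries or populations left out. The ratio of population means was also taken with 1 library left out at a time, a choice made after seeing the data. The procedure was tested on simulated data. Replicates are separate sorts of pooled embryos, and 3 counts was the floor, for counting error only.

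The genes described are the 9 members, up to 4 passing genes per list that average 1 CPM or more, and the 3 genes most like each member whose means span at least 2 on the log2 scale. Members and lists were chosen with earlier results of these data known. Python 3.11.15, numpy 2.4.6, pandas 2.3.3 and matplotlib 3.10.9 were used for annotation and drawing.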

Additional observations from a re-analysis of the deposited data

How the results depend on the processing

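The 9 members passed in the same numbers with DESeq2 size factors, library totals, both other filters or the replicate block. Between same-numbered libraries of different populations, the deviations from the population means correlated at -0.181 to 0.308, over 0.1 in 4 of 26 pairs. Differently numbered libraries were not compared in this way, so the values cannot show whether libraries share a pool. With the block 1589, 573, 756, 1952 and 1739 genes passed in S9-JAG1+ LMPs, S9-Pαhi LMPs, OCPs, chondroblasts and S9-SCA-1+ cells, and no member changed its call. DESeq2's Wald test added *Foxd1* between S9-Pαhi LMPs and OCPs (1.43).

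At an adjusted p of 0.05 with no fold limit the genes came to 6403, 1706, 3226, 8902 and 5831 for the populations in that order, and to 3263, 1931 and 3982 for the successive steps. Of the members, all 9 then passed in S9-JAG1+ LMPs, 5 in S9-Pαhi LMPs, 4 in OCPs, 8 in chondroblasts and 6 in S9-SCA-1+ cells, and 7, 6 and 6 in the steps. Leaving out the chondroblasts or the S9-SCA-1+ cells changes the mean a population is set against. The shares of all genes given above are for all 14 libraries and not for these smaller sets. In S9-Pαhi LMPs 2 members then passed in either case: without chondroblasts *Foxc1* (-1.02) and *Foxd1* (-1.52) no longer did, and without S9-SCA-1+ cells *Foxd1* (-1.39) and *Foxd2* (-0.61) did not. In OCPs 4 passed without S9-SCA-1+ cells, with *Foxd2* (1.96) and *Foxp4* (1.45) added. In chondroblasts *Foxd2* was added too (2.15). Without chondroblasts *Foxp4* passed in OCPs and *Foxc2* in S9-JAG1+ LMPs (1.29) and S9-SCA-1+ cells (1.37).

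Differences that changed sign had not passed. Without chondroblasts these were *Foxp2* in S9-Pαhi LMPs (0.19) and S9-SCA-1+ cells (0.13), and *Foxc2* (0.062) and *Foxd1* (0.36) in OCPs. Without S9-SCA-1+ cells they were *Foxp4* in S9-Pαhi LMPs (0.064) and *Foxd1* in OCPs (0.49), and with library totals *Foxo3* from S9-Pαhi LMPs to OCPs (0.017). With 1 library left out at a time, *Foxd1* in OCPs ran from -0.28 to 0.26, *Foxo1* in chondroblasts from -0.09 to 0.11, *Foxc1* and *Foxd1* from S9-JAG1+ to S9-Pαhi LMPs from -0.055 to 0.52 and from -0.047 to 2.14, *Foxo3* from S9-Pαhi LMPs to OCPs from -0.12 to 0.033, and *Foxd2* from OCPs to chondroblasts from -0.037 to 0.34. *Foxp1* passed in the first step without S9-JAG1+ replicate 1 (1.22) and *Foxd1* in the second without S9-JAG1+ replicate 3 (1.40). The causes were not tested. Low counts limit *Foxd1* and *Foxd2* in both LMP populations. Where 1 S9-SCA-1+ library was left out, the other was assumed to vary like the rest.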

Other observations

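Among the relatives of the members, chosen after their values were seen, *Foxo4* was the most abundant FOXO transcript. It was at 32.6 to 63.4 CPM per kilobase over the 14 libraries, above *Foxo1* and *Foxo3* in each of them (4.97 to 9.06 and 8.33 to 20.1 CPM per kilobase).

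*Foxp3*, the factor that defines regulatory T cells, was counted at 9.03 to 14.6 CPM in every library, where leukocyte markers summed to 0.819 CPM or less. Of its 4577 annotated exon bases, 12.9% lie in exons of *Ccdc22*, 8.15% in *Gm36995* and 5.81% in *Ppp1r3f* on the opposite strand and 18.6% in *Flicr* on the same strand, and the source of the reads was not tested.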
